A study of Mus musculus with 6 samples.

Results

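AMP-activated protein kinase (AMPK) and the LKB1 complex that switches it on were followed at the RNA level in the quadriceps femoris of mice with and without a muscle transgene. The 10 genes were taken by symbol: Prkaa1, Prkaa2, Prkab1, Prkab2, Prkag1, Prkag2, Prkag3, Stk11, Cab39 and Strada. They are 10 of the 17711 genes with a named probe. All probes whose platform symbol was among these were used, 13 of the 46611 probes that could be placed. Of the 13 probes, 9 were detected on all 6 arrays, and these 9 covered 7 of the 10 genes.

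Expression was measured on an Illumina mouse BeadArray, on which beads carrying a probe read each transcript. The 3 arrays labelled Wild Type and the 3 labelled RORalpha1delDE carried RNA of C57BL/6 mice, which for both groups had been fasted overnight and killed at 9 in the morning. They lived under a 12 h light cycle and ate a diet with 4.6% fat. The transgene encodes a shortened human RORalpha1, a nuclear receptor that binds DNA as a transcription factor, without its E region and part of its hinge, and its human skeletal alpha-actin promoter is active in skeletal muscle. The labels give neither age nor sex, and they do not say whether the arrays of a group came from separate mice or from how many transgenic lines.

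AMPK is a kinase that responds to a low energy state of the cell. Each enzyme holds a catalytic alpha subunit, a beta subunit that acts as scaffold and can bind glycogen, and a gamma subunit that binds AMP, ADP and ATP. LKB1, encoded by Stk11, activates AMPK by phosphorylating the activation loop of the alpha subunit, and it does so in a complex with the pseudokinase STRAD and the scaffold protein MO25. In skeletal muscle, AMPK is known for promoting glucose uptake and fatty acid oxidation during contraction and fasting, mostly through phosphorylation of proteins, which an RNA measurement does not read.

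Arrays 1 and 2 of each group were counted as 1 sample. The differences between them at bright probes of the same gene were almost unrelated across 525 genes (r = 0.0341 in wild type and 0.0316 in transgenic, as a description), while array 3 differed from them with r from 0.703 to 0.764. Levels below are log2 normalised signals, means ± SD over these samples (n = 2 in each group), and differences are transgenic minus wild type on the same log2 scale with the SE of the fit. A level is comparable between arrays for a given probe, not between probes. The muscle markers Acta1, Ckm, Myh4 and Mb were all detected. All 6 arrays shared 1 chip, wild type at its first positions, so position and genotype cannot be told apart. In whole muscle, fewer cells of a type and less RNA per cell cannot be told apart either.

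None of the AMPK and LKB1 probes passed the test. By limma with Benjamini-Hochberg adjustment over 14420 kept probes, 0 of the 9 were called at an adjusted p under 0.05, with adjusted p from 0.569 to 0.998, against 0.00693% of all kept probes. At an unadjusted p under 0.05 there was 1 of 9, the probe of Prkag2, against 7.64% of all kept probes. With the 6 arrays taken as separate samples limma again called 0 of the 9, against 0.374% of all kept probes, and the same single probe had an unadjusted p under 0.05, against 15.0%. The median difference of the 9 probes was 0.01 and that of all kept probes 0.02. The median size of the difference, whatever its sign, was 0.17 for the 9 and 0.18 for all. With 2 samples in each group the smallest p of an exact permutation test is 0.333.

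**Figure D1:**
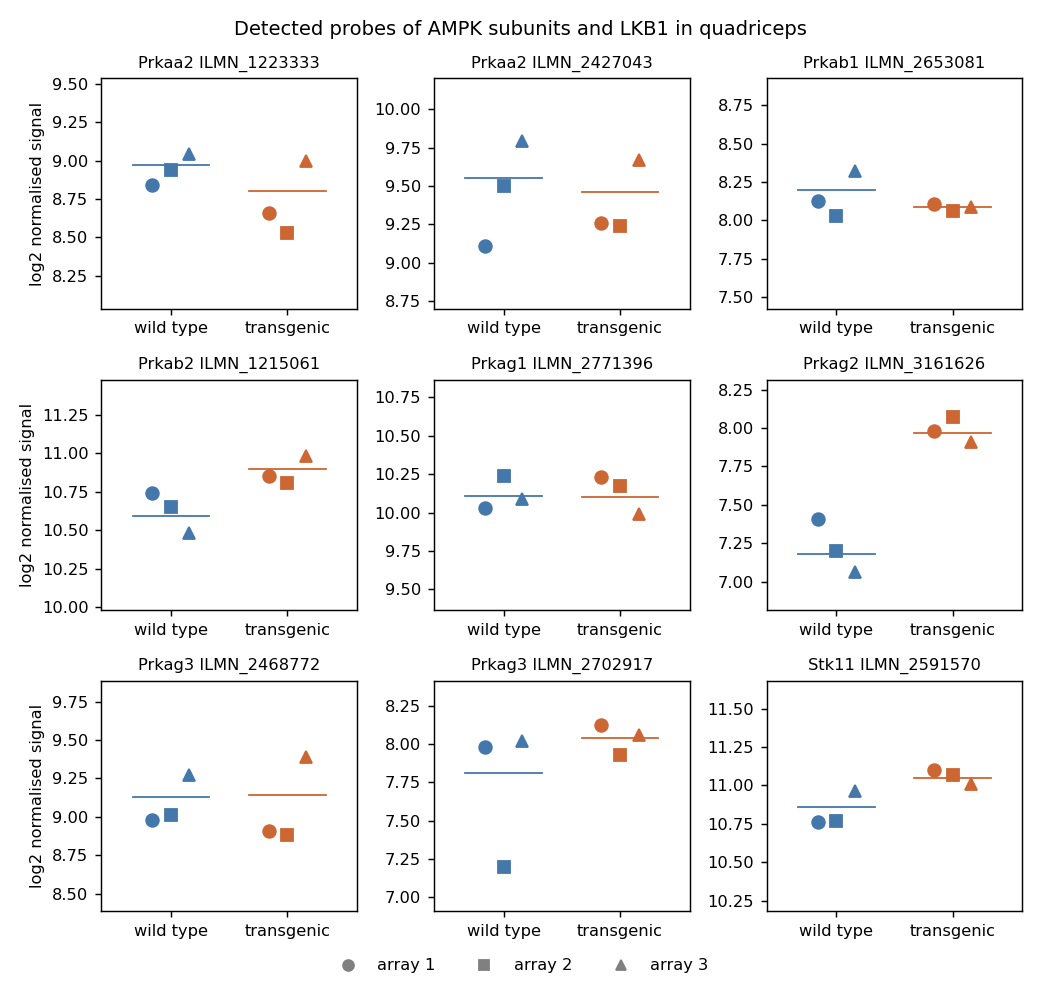
Log2 normalised signal (vertical axis, 1.5 log2 units in each panel) of the 9 detected probes on each array, with wild type in blue and transgenic in orange; circle, square and triangle are arrays 1, 2 and 3, and the line is the group mean after arrays 1 and 2 were averaged. The Prkag2 points of the transgenic arrays (7.91 to 8.07) lie above all wild-type points (7.06 to 7.41), while the groups overlap for both probes of Prkaa2, both of Prkag3, and for Prkab1 and Prkag1.

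The catalytic subunits were represented by Prkaa2, which encodes alpha2, the isoform that prevails in skeletal muscle. Its first probe, ILMN_1223333, read 8.84, 8.94 and 9.04 on wild-type arrays 1 to 3 and 8.66, 8.53 and 9.00 on the transgenic arrays. Transgenic arrays 1 and 2 lay below every wild-type array and transgenic array 3 lay among them, so the groups overlapped. The means were 8.97 ± 0.10 and 8.80 ± 0.28, a difference of -0.17 ± 0.21 (95% interval -0.68 to 0.34, limma adjusted p = 0.854).

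The second Prkaa2 probe, ILMN_2427043, read 9.11, 9.50 and 9.79 in wild type and 9.26, 9.24 and 9.67 in transgenic muscle. In both groups array 3 was the highest. Its difference was -0.09 ± 0.25 (95% interval -0.70 to 0.53, limma adjusted p = 0.947). Both probes thus gave a small negative difference well inside its error. The sign of the second rested on single arrays: it was 0.01 without wild-type replicate 2 and 0.16 without wild-type replicate 3. As folds, the first probe's interval reached from 0.625 to 1.27 and the second's from 0.615 to 1.44. In this fit, changes of Prkaa2 of more than 2-fold lay outside both intervals. They rest on 2 samples in each group, whose spread may be technical, so they set no bound on a difference between genotypes. Without transgenic replicate 3, which leaves 1 transgenic sample, the differences were larger in size, at -0.37 and -0.30.

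Prkaa1, which encodes the alpha1 isoform found in most cell types, was at or near background. Its probe gave deposited signals of 176.8, 227.7 and 154.6 in wild type and 222.7, 183.0 and 163.0 in transgenic muscle. It was detected on 1 of 3 arrays in each group, wild-type array 2 and transgenic array 1. The lowest signal that counted as detected ran from 183.8 to 203.8 over the arrays. Arrays 1 and 2 of the same group fell on opposite sides of that limit in both groups, and no difference is given for this gene.

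The beta subunits were both detected. Prkab2, which encodes beta2, the main beta isoform of skeletal muscle, read 10.74, 10.65 and 10.48 in wild type and 10.85, 10.81 and 10.98 in transgenic muscle. Every transgenic array was above every wild-type array, by 0.07 at the closest pair. The difference of 0.31 ± 0.18 (10.59 ± 0.15 against 10.90 ± 0.10, 95% interval -0.14 to 0.76) did not pass the test, with a limma adjusted p of 0.718.

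Prkab1, which encodes beta1, read 8.13, 8.03 and 8.32 in wild type and 8.11, 8.06 and 8.09 in transgenic muscle. The transgenic arrays lay close together and within the range of the wild-type arrays. The difference was -0.11 ± 0.18 (95% interval -0.55 to 0.34, limma adjusted p = 0.901), and it was 0.01 without wild-type replicate 3.

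Among the gamma subunits, Prkag2 gave the largest difference of all members. It encodes gamma2, the subunit whose mutations in humans cause a glycogen storage disease of the heart with ventricular pre-excitation. The deposited signals were 343.2, 312.2 and 271.5 on the wild-type arrays and 386.9, 394.4 and 349.6 on the transgenic arrays, before any correction and against detection limits of 183.8 to 203.8. After normalisation they were 7.41, 7.20 and 7.06 in wild type and 7.98, 8.07 and 7.91 in transgenic muscle. On that scale the lowest transgenic array stood 0.50 log2 units above the highest wild-type array. In the deposited signals the same limits were close, at 349.6 and 343.2.

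The group means of Prkag2 were 7.18 ± 0.18 and 7.97 ± 0.08, a difference of 0.79 ± 0.19, or 1.72-fold with a 95% interval from 1.26 to 2.36. The unadjusted limma p was 0.00551 and the adjusted p 0.569, so it was not called. By the size of its difference the probe ranked 374 of 14420. With the 6 arrays as separate samples the limma adjusted p was 0.0824, which did not pass either. The size depended on the background correction: the difference was 0.45 without it and 0.43 in the deposited log2 values. Leaving out transgenic replicate 3 gave 0.84, and leaving out wild-type replicate 3 gave 0.66.

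Markers of other cell types in the same samples are given beside this. Of 8 adipocyte markers 4 were kept, all 4 with negative differences, and 1, Ucp1, fell at a limma adjusted p under 0.05. Ucp1 was detected on all 3 wild-type arrays and on 0 transgenic arrays, so it passed the detection filter through the wild-type group. Cidea was at 10.85 and 11.83 in the wild-type samples and at 7.33 and 7.27 in the transgenic ones. Cidec was at 10.73 and 10.62 against 8.26 and 10.18, and Adipoq overlapped between the groups (10.74 and 11.79 against 9.23 and 11.05). The summed deposited signal of the 4 kept markers was 11307 to 15379 on the wild-type arrays and 1604 to 3602 on the transgenic arrays. Plin1, Lep, Fabp4 and Retn did not pass the detection filter. The 4 kept macrophage markers of 6 had differences above 0, with 0 called and summed signals of 907 to 1063 and 976 to 1408. Set against the wild-type mean, their median was 0.35 in transgenic arrays 1 and 2 and 1.33 in transgenic array 3. Cd68 and Csf1r had no probe of that symbol. The kept endothelial, fibroblast and erythroid markers had median differences of -0.05, 0.18 and 0.07, with 0 called. The part of these markers in the Prkag2 difference was not tested.

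**Figure D2:**
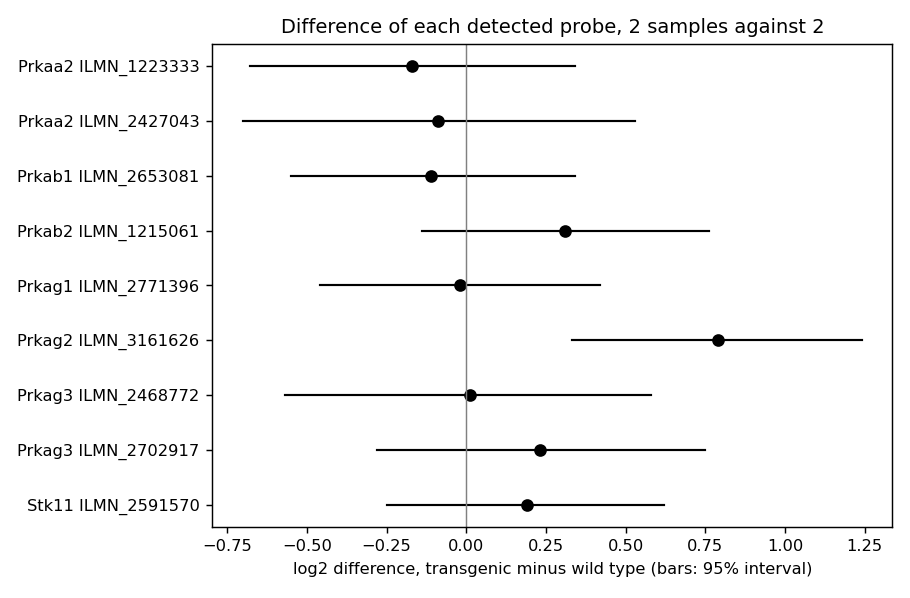
Log2 difference, transgenic minus wild type (horizontal axis), of the 9 detected probes with 2 samples in each group; points are estimates and bars their 95% intervals. The interval of Prkag2 (0.33 to 1.24) is the 1 that does not include 0, before any adjustment for the number of probes tested.

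The promoter windows of the 10 genes were searched for AGGTCA, which ROR receptors bind when it is preceded by bases rich in A and T. RefSeq lists 3 start sites for Prkag2 on the minus strand of chromosome 5 (assembly GRCm38.p6). For the 10 genes there were 12 windows in all, each from 250 bases before to 50 after a start. AGGTCA was searched on both strands by these 6 bases alone, without regard to the bases before them. It was present in 1 of the 12 windows (8.3%), against 16.3% of 32851 windows of the same length in RefSeq. The match belongs to the Prkag2 start in the middle of the 3, at chr5:24995754-24996003 for the 250 bases before the start, and begins at base -43 from the start, on the opposite strand. Those bases are shown 5′ to 3′ on the minus strand, with the match in capitals.
Prkag2, middle start: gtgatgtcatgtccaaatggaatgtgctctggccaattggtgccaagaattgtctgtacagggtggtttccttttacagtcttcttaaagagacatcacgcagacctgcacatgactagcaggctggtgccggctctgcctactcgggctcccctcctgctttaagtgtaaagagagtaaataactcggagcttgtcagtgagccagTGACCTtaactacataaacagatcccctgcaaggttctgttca
A match of these letters is a description and says nothing of binding, and its part in the Prkag2 difference was not tested. The array's annotation ties the Prkag2 probe to transcript NM_145401, and which start feeds that transcript was not analysed here.

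Prkag1, which encodes gamma1, the gamma isoform found in most tissues, read 10.03, 10.24 and 10.09 in wild type and 10.23, 10.17 and 9.99 in transgenic muscle. The groups overlapped almost completely. The difference was -0.02 ± 0.18 (10.11 ± 0.03 against 10.10 ± 0.15, 95% interval -0.46 to 0.42, limma adjusted p = 0.987).

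Prkag3 encodes gamma3, an isoform largely restricted to skeletal muscle and typical of fast glycolytic fibres. Its probe ILMN_2468772 read 8.98, 9.01 and 9.27 in wild type and 8.91, 8.88 and 9.39 in transgenic muscle. The highest and the lowest array were both transgenic. The difference was 0.01 ± 0.23 (95% interval -0.57 to 0.58, limma adjusted p = 0.998).

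A second, dimmer Prkag3 probe, ILMN_2702917, read 7.98, 7.20 and 8.02 in wild type and 8.12, 7.93 and 8.06 in transgenic muscle. Wild-type array 2 was low, and the other 5 arrays lay between 7.93 and 8.12. The difference was 0.23 ± 0.21 (95% interval -0.28 to 0.75, limma adjusted p = 0.791), and it fell to 0.04 without wild-type replicate 2.

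The LKB1 complex was represented by Stk11, which encodes the kinase itself. Its probe read 10.76, 10.77 and 10.96 in wild type and 11.10, 11.07 and 11.01 in transgenic muscle. The transgenic arrays were all above the wild-type arrays, by 0.06 at the closest pair. The difference was 0.19 ± 0.18 (10.86 ± 0.13 against 11.05 ± 0.05, 95% interval -0.25 to 0.62, limma adjusted p = 0.805).

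The partners of LKB1 could not be followed with these probes. Cab39, which encodes MO25alpha, gave deposited signals from 120.1 to 171.8 and was detected on 0 of 6 arrays. Strada, which encodes STRADalpha, has a pair of probes. The first, ILMN_2434958, lay between 126.4 and 157.2 and was also detected on 0 of 6 arrays. The second, ILMN_2731592, gave 156.7, 200.1 and 161.0 in wild type and 179.5, 213.7 and 205.2 in transgenic muscle, and was detected on transgenic arrays 2 and 3. Arrays 1 and 2 of the transgenic group, counted as 1 sample, lay on opposite sides of the detection limit for this probe, so no difference is given.

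**Figure D3:**
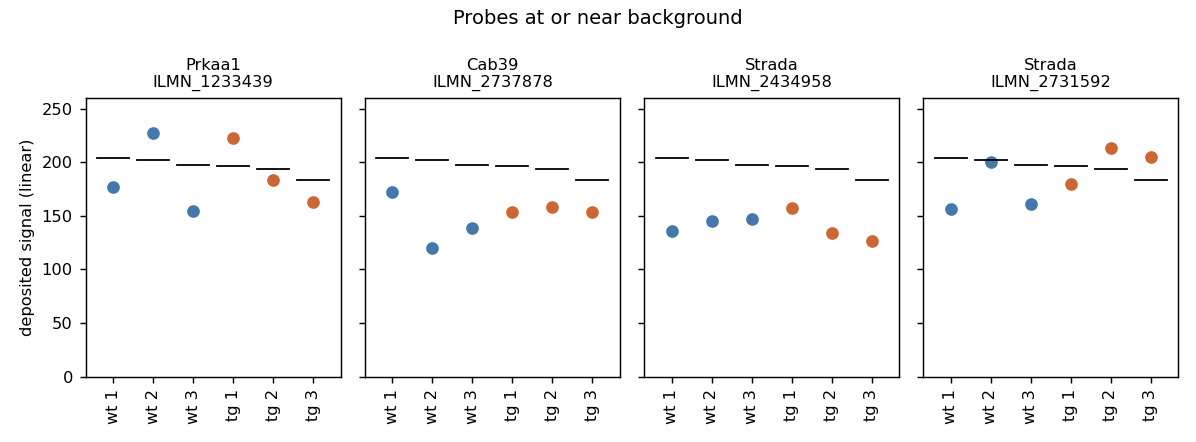
Deposited signal on a linear scale (vertical axis) of the 4 member probes that did not pass the detection filter, on wild-type (wt, blue) and transgenic (tg, orange) arrays 1 to 3; the black bar is the lowest signal that counted as detected on that array. Prkaa1 rises above the bar on 2 arrays and the second Strada probe on 2, while Cab39 and the first Strada probe stay below it on all 6.

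Of the 9 detected probes 4, those of Prkab2, Prkag2 and Stk11 and the dimmer one of Prkag3, had both transgenic samples above both wild-type samples. Among all kept probes 21.6% did so. Over the 6 arrays, 3 of the 9 (Prkab2, Prkag2 and Stk11) had every transgenic array above every wild-type array, against 12.1% of all kept probes. In the deposited signals, before normalisation, Prkab2 and Stk11 overlapped between the groups. Prkag2 did not, but its lowest transgenic signal was 349.6 and its highest wild-type signal 343.2. Prkab2 was highest on wild-type array 1 (2099.8), and Stk11 was lowest on transgenic array 3 (1975.3). None of the 9 had every transgenic array below every wild-type array, which held for 9.76% of all kept probes.

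The samples of a group also differed from each other in these genes. The first Prkaa2 probe was 0.40 higher on transgenic array 3 than in the mean of transgenic arrays 1 and 2, the second 0.42 higher, and the brighter Prkag3 probe 0.50 higher. The same differences in wild type were 0.15, 0.49 and 0.27, also upward. Prkag1 went the other way in both groups, by -0.21 in transgenic and -0.05 in wild-type muscle. The median size of such a difference over all kept probes was 0.20 in transgenic and 0.24 in wild-type muscle.

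Transgenic array 3 stood apart in genes of slow fibres. The median difference between it and transgenic arrays 1 and 2 was -5.10 over the 7 kept of 8 slow-fibre markers and 0.02 over 9 fast-fibre markers. The summed signal of the slow-fibre markers was 72562 to 92711 on the wild-type arrays and 6945 to 113363 on the transgenic arrays, and Myh7 had no probe of that symbol. Without transgenic replicate 3 the differences were -0.37 and -0.30 for the Prkaa2 probes and -0.24 for the brighter Prkag3 probe, with limma adjusted p of 1 for each. That fit leaves 1 transgenic sample, which is assumed to vary like the wild-type samples. The part of the slow-fibre markers in these values was not tested.

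**Figure D4:**
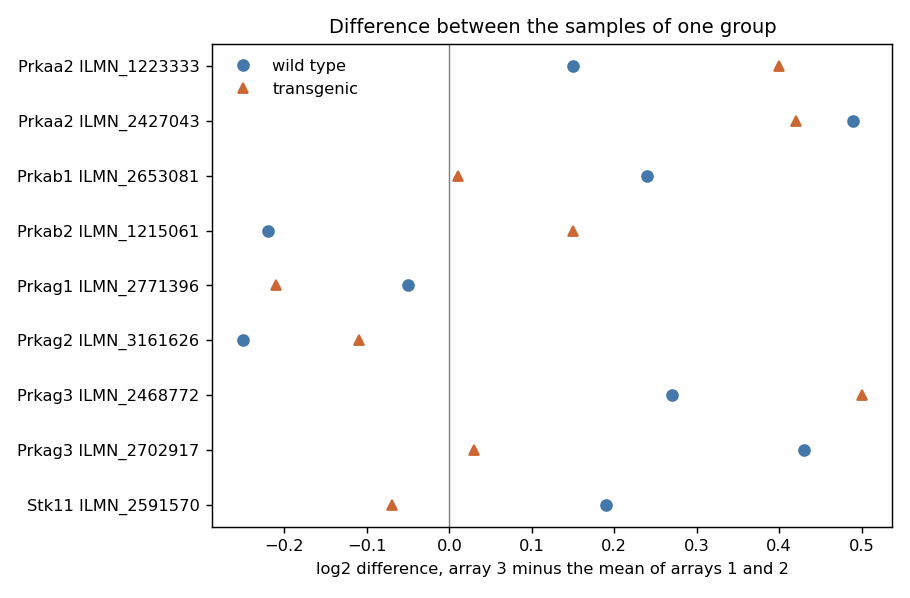
Log2 difference between array 3 and the mean of arrays 1 and 2 of the same group (horizontal axis) for the 9 detected probes, in wild type (blue circles) and transgenic muscle (orange triangles). Both probes of Prkaa2 and both of Prkag3 lie above 0 in both groups, while Prkag1 and Prkag2 lie below 0 in both.

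The genes around AMPK were described through lists of upstream regulators, related kinases, substrates and downstream genes. Of 64 listed genes, 48 had a kept probe, and by limma 0 of these rose and 0 fell at an adjusted p under 0.05. At an unadjusted p under 0.05 there were 4 of 48, against 7.64% of all kept probes. Their median difference was -0.05, beside 0.02 for all kept probes, with 19 above and 29 below 0.

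Among LKB1 partners and other upstream genes, 8 of 13 were kept, with a median of 0.02 and 0 called. Stradb, which encodes the second STRAD, had the largest difference, 0.31 ± 0.17, from 12.06 and 12.02 in the wild-type samples to 12.30 and 12.38 in the transgenic ones (limma adjusted p = 0.71). Cab39l, which encodes the second MO25, differed by 0.08 ± 0.18 and was detected on all 3 wild-type and all 3 transgenic arrays. Adipor1, a receptor of adiponectin upstream of AMPK, differed by 0.15 ± 0.18, Fnip1, a binding partner of folliculin and AMPK, by -0.14 ± 0.22, and Sesn3, a sestrin, by -0.12 ± 0.21. Camkk2, the calcium-dependent AMPK kinase, and Sesn2 and Fnip2 were on the array but did not pass the detection filter.

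The AMPK-related kinases, which LKB1 also activates, had 8 of 12 members kept, a median of -0.25, 5 below 0 and 0 called. Set against the wild-type mean, the list's median was 0.01 in transgenic arrays 1 and 2 and -0.50 in transgenic array 3. Sik1, a salt-inducible kinase, differed by -0.72 ± 0.44, with transgenic array 3 at 5.19 against 6.51 in transgenic arrays 1 and 2. Its probe was detected on all 3 wild-type arrays but on only 2 transgenic arrays. Snrk differed by -0.58 ± 0.29 and Sik3 by -0.47 ± 0.17, both with the transgenic samples below the wild-type samples, as in 18.1% of all kept probes. Sik3 had an unadjusted p of 0.0351 and a limma adjusted p of 0.647. Nuak1, a kinase abundant in heart and muscle, differed by -0.29 ± 0.27.

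Direct substrates of AMPK had 18 of 25 members kept, a median of -0.12 and 0 called. Its median against the wild-type mean was 0.04 in transgenic arrays 1 and 2 and -0.22 in transgenic array 3. Acaca, which encodes the acetyl-CoA carboxylase that AMPK inhibits in lipogenic tissue, was at 10.39 and 10.44 in the wild-type samples and 9.36 and 9.31 in the transgenic ones. The difference of -1.08 ± 0.17 had a limma adjusted p of 0.389. With the 6 arrays as separate samples the limma adjusted p was 0.0394. Acaca was then the 1 gene of the 48 called, against 0.374% of all kept probes. That fit counts arrays 1 and 2 of a group as separate samples. With them as a random block, 0 of the 48 were called. Acacb, which encodes the carboxylase that controls fatty acid entry into muscle mitochondria, differed by -0.19 ± 0.20. Acaca is also a gene of fat cells, and the part of the adipocyte markers given above in its difference was not tested.

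Eef2k, the kinase of elongation factor eEF2, differed by 0.60 ± 0.30, Hdac4, a class IIa histone deacetylase, by 0.53 ± 0.19, and Tbc1d1, a Rab GTPase-activating protein that holds glucose transporters inside the cell, by -0.50 ± 0.17. Their limma adjusted p-values were 0.685, 0.645 and 0.638.

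Genes downstream in muscle, 14 of 14 kept, had a median of -0.00 and 0 called. Cd36, the fatty acid transporter, differed by -0.54 ± 0.23 by a probe near background, Ucp3 by -0.44 ± 0.25, Vegfa, an angiogenic factor, by 0.42 ± 0.26 and Tfam, which maintains mitochondrial DNA, by 0.35 ± 0.20. Their limma adjusted p-values were 0.651, 0.708, 0.73 and 0.71.

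**Figure D5:**
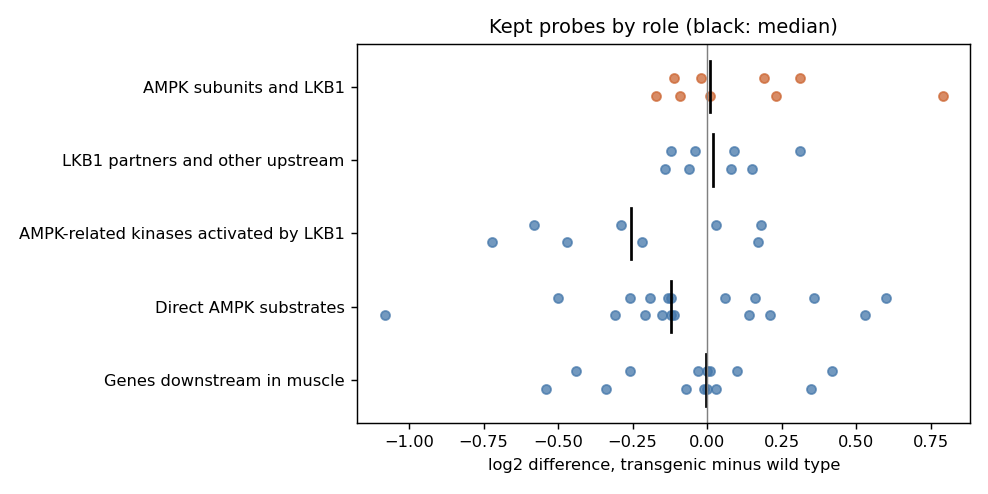
Log2 difference, transgenic minus wild type (horizontal axis), of the 9 detected AMPK and LKB1 probes (orange) and of the kept genes of 4 lists around AMPK (blue), each point a probe and each black bar a list median; points are offset vertically for legibility. Medians lie between -0.25 and 0.02, and the outermost points are Prkag2 at 0.79 and Acaca at -1.08.

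The kept probes closest in pattern to Prkag2, by the root mean square difference of mean-centred log2 levels over the 4 samples, were those of Zbtb14 (0.0467), Rabgap1l (0.0477), Syt9 (0.048), Gng8 (0.0483) and Nfatc1 (0.0628). Zbtb14 is a zinc finger transcription factor, Rabgap1l a Rab GTPase-activating protein, Syt9 a synaptotagmin, Gng8 a G protein gamma subunit and Nfatc1 a calcineurin-dependent transcription factor. Since they were chosen for this pattern, their differences are fixed near that of Prkag2 and are not results. Gng8 was detected on 0 and Zbtb14 on 1 of the 3 wild-type arrays and both on all 3 transgenic arrays, so these probes passed the detection filter through the transgenic group. In all, 21 kept probes lay within 0.1 of Prkag2 by this measure, which over 4 samples many probes can meet.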

How the data were processed

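The deposited signal table holds bead-averaged intensity on a linear scale, exported by the authors from BeadStudio (2.3.41, per the submitters' processing notes) at a background setting that the sources used here do not give. Its detection column, a fraction from 0 to 1 per the file headers, rises with signal and was read as 1 minus the p-value. The authors' deposited log2 values are centred per probe and per array. Signal rows are displaced against the probe identifiers by 0 to 21 rows. They were returned by matching each row's array-to-array differences with those of the log2 table (tolerance 0.002), which placed 46611 of 46632 probes; detection values, not used in the matching, then followed the signals (Spearman's rho at least 0.99729 across probes).

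Intensities were processed with neqc (offset 16) in limma 3.58.1, R 4.3.3, and compared with lmFit and eBayes, two-sided. Kept probes had a detection p under 0.05 on at least 3 of 6 arrays. Python 3.11.15 was used for matching, motifs and plots. The fit was tested on simulated data. Each array detected 13979 to 14887 probes, and the number of arrays limits precision. Since no label speaks of separate mice, p-values rest on a spread that may be technical.

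Probe symbols came from the platform annotation (29976 probes with 1 symbol, 10 with several, 16646 with none), of which 29921 were found in RefSeq and 0 changed. A listed gene was read by its kept probe with the highest mean. All probes of the 10 genes were named, from each list up to 4 genes with the largest differences (Cab39l and Acacb were added after their values were seen), and the 5 probes closest in pattern to the member with the largest difference. Members, lists and tests were chosen with earlier results of these data known. The averaging of arrays 1 and 2 and 18 alternatives were applied. The promoter windows are from RefSeq (GRCm38.p6).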

Additional observations from a re-analysis of the deposited data

How the results depend on the processing

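The count of called AMPK and LKB1 probes was 0 under all 18 alternatives, with 1 probe at an unadjusted p under 0.05 in each except without a detection filter, where 13 probes were tested and 2 had one. Prkag2, Prkab2, Stk11, the first Prkaa2 probe and the dimmer Prkag3 probe kept their sign under all 17 alternatives that refit them; the Prkag2 difference ran from 0.43 to 0.84 with limma adjusted p from 0.0824 to 1. Signs changed for the second Prkaa2 probe, Prkab1, Prkag1 and the brighter Prkag3 probe, none of them called. Among the 48 genes around AMPK, 0 were called except with the 6 arrays as separate samples. That fit gave 1, against 0.374% of all kept probes.

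Over all kept probes 1 was called, that of Ucp1. There were 54 with 6 separate arrays, 13 when arrays 1 and 2 of a group formed a random block, and 10 under an intensity trend. The deposited log2 values gave 7, offset 50 gave 9 and median centring gave 3. There were 8 if no background was corrected and 3 at an adjusted p under 0.10. Among probes detected on all 6 arrays 0 were called (919 at an unadjusted p under 0.05). Ucp1, detected on 0 transgenic arrays, was not among the probes tested there. Leaving out 1 array gave 1 to 8, the 8 without transgenic replicate 3; the cause was not tested. Without an array 3, 1 sample is left in that group and is assumed to vary like the other group. With a replicate block 1 was called with the samples averaged and 15 with 6 separate arrays, and 0 of the member probes in both. Arrays with the same number did not deviate together (r = 0.000456, 0.0232 and 0.0616), and 2 of 6 arrays correlated best with their own number. Signals near background limit what can be said of Prkaa1, Cab39 and Strada.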
